A study of Mus musculus with 12 samples.

Results

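The RNA-seq comparison described here set 3 libraries labelled Chd7 knockout against 3 control libraries of bone marrow mesenchymal stem cells (MSCs) after 5 days in adipogenic medium. These are 6 of the 12 libraries of the series, chosen by their labels and not by any measured value. The controls were labelled WT (Chd7 fl/fl mice in the study) and the others came from Prx1-cre;Chd7 fl/fl mice, so that both groups carried the floxed allele. All were C57BL/6 mice of 4 weeks. Marrow was flushed from femurs, tibiae and humeri, and cells of passage 3 were used. Both groups received dexamethasone at 1 µM, isobutylmethylxanthine at 0.5 µM and insulin at 10 µg/ml. The other libraries of the series came from osteogenic medium. It held dexamethasone at 10 nM, glycerophosphate at 10 mM and ascorbic acid, and no insulin or isobutylmethylxanthine is listed for it. The Prx1 promoter drives Cre in early limb mesenchyme, and Cre removes exon 2 of Chd7. Marrow cells of other origin that adhere in such cultures, macrophages among them, come from outside this mesenchyme. Whether they carried the deletion was not measured here. Of 54532 genes listed, the 12214 with an FPKM (fragments per kilobase of gene, scaled for depth) of at least 1 in at least 3 of the 6 libraries were tested. Nothing in the sources used here says that the 3 libraries of a group came from separate animals, so the p-values measure the spread between these libraries, which may be technical.

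Chd7 encodes a chromatin remodeller that uses ATP to move nucleosomes at enhancers and promoters. The adipogenic medium acts through known receptors. Dexamethasone binds the glucocorticoid receptor, which enters the nucleus, induces genes such as Fkbp5 and Tsc22d3 and represses inflammatory genes. Isobutylmethylxanthine blocks phosphodiesterases and raises cAMP, and insulin drives glucose uptake and lipid storage. NRF2 is a transcription factor that induces antioxidant and NADPH-producing enzymes through the antioxidant response element, and PU.1 is a factor that macrophages need for their identity.

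Promoter windows of RefSeq genes (GRCm38.p6, from 250 bases before to 50 bases after a start site) were searched on both strands for motifs of these factors. Each window shown belongs to a gene that passed the test in a list described below, with the match in capitals. The glucocorticoid receptor palindrome GNACANNNTGTNC was present near a start site of 0.541% of all 26794 genes with a window and of 2 of 14 glucocorticoid-induced genes, Mt1 (chr8:94178839-94179138, plus strand, its only window) and Sgk1 (chr10:21993640-21993939, plus strand, 1 of 6 windows).
Mt1: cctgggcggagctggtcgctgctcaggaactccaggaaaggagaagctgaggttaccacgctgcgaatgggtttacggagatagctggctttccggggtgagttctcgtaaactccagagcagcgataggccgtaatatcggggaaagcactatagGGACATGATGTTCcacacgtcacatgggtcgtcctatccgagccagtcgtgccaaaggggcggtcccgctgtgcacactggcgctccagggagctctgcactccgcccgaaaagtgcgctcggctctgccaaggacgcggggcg
Sgk1: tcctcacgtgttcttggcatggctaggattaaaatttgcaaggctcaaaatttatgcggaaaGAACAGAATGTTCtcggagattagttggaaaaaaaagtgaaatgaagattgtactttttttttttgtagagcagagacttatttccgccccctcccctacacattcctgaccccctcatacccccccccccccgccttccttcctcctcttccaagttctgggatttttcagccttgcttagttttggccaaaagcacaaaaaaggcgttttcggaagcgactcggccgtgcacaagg
The antioxidant response element, searched as TGACNNNGC, was present near a start site of 14.0% of all genes and of 8 of 14 listed NRF2 genes with a window. The 3 shown, whose values are given below, are Prdx1 (chr4:116685349-116685648), Srxn1 (chr2:152105274-152105573) and Gclm (chr3:122245307-122245606), all on the plus strand, and in these the match lay on the minus strand.
Prdx1: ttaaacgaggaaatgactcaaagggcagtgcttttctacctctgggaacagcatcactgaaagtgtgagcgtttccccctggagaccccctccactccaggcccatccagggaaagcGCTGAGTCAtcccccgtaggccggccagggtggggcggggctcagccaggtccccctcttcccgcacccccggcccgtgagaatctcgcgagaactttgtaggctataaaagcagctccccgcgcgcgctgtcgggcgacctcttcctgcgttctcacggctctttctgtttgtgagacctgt
Srxn1: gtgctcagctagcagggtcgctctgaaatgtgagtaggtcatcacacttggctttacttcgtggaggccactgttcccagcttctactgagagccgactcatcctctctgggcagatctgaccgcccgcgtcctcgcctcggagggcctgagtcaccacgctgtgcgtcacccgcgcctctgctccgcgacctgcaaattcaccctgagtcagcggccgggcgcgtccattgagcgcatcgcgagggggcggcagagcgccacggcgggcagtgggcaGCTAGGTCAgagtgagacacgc
Gclm: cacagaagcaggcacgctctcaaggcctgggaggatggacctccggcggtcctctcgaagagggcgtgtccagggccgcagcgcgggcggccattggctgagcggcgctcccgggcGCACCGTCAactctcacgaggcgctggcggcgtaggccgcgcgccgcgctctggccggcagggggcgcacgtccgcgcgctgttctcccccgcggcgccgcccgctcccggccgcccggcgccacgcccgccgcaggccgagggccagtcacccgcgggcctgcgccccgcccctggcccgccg
The PU.1 letters GAGGAA were present near a start site of 31.1% of all genes and of 12 of 18 macrophage genes, of which Aif1 (chr17:35176003-35176302, minus strand) fell in the comparison below.
Aif1: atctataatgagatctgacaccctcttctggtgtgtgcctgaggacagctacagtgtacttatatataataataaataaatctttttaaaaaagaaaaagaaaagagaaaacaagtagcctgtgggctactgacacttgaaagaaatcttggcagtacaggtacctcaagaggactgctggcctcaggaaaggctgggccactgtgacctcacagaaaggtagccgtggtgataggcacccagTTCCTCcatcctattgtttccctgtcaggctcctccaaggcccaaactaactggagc
The cAMP letters TGACG were present for 23.2% of all genes and for 10 of 14 listed cAMP genes. A match is a description of these letters, and binding was not measured. The search for the antioxidant response element was added, and the genes shown were picked, after the values were seen.

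The libraries were of similar depth, with 18637163 to 21093453 fragments on genes recovered from the steps of the FPKM values. Chd7 itself was no lower in the libraries labelled knockout. It stood at 2.26, 1.81 and 2.23 FPKM in the control libraries and 2.03, 2.35 and 2.48 FPKM in the libraries labelled knockout (log2 difference 0.09, SE 0.0987, limma adjusted p = 0.569), from 498 to 521 fragments per control library and 525 to 651 per library labelled knockout. The groups overlapped, and the deletion could not be checked, since a gene value does not separate exon 2 from the other exons. Groups are therefore named by their labels throughout, and every direction below rests on them. Values of 3 libraries are given in the order of the replicate numbers 1 to 3.

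The 6 libraries did not fall into 2 tight groups. On the leading principal component, with 71.0% of the variance, control 1 and control 3 scored -43.8 and -40.9, control 2 scored 11.3, and the libraries labelled knockout scored 10.7, 31.6 and 31.2. Control 2 thus lay beside the library labelled knockout 1 on this axis, and the next component, with 16.5%, set it apart at -31.7. Main counts are therefore also given without control 2. Of the 5211 genes that passed without control 2, that library was nearer on the log2 scale to the mean of the libraries labelled knockout than to controls 1 and 3 in 3064 (58.8%). Whether libraries were exchanged between labels was not tested. Chd7 was not lower in adipogenic medium, control 2 lay apart, and several genes below changed in opposite directions in the 2 media. In osteogenic medium Chd7 was lower in every library labelled knockout, at 2.64, 2.67 and 2.77 against 2.03, 2.35 and 2.28 FPKM. It did not pass there (log2 difference -0.20, limma adjusted p = 0.157). Every direction and interaction therefore holds only as far as the labels do.

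**Figure D1:**
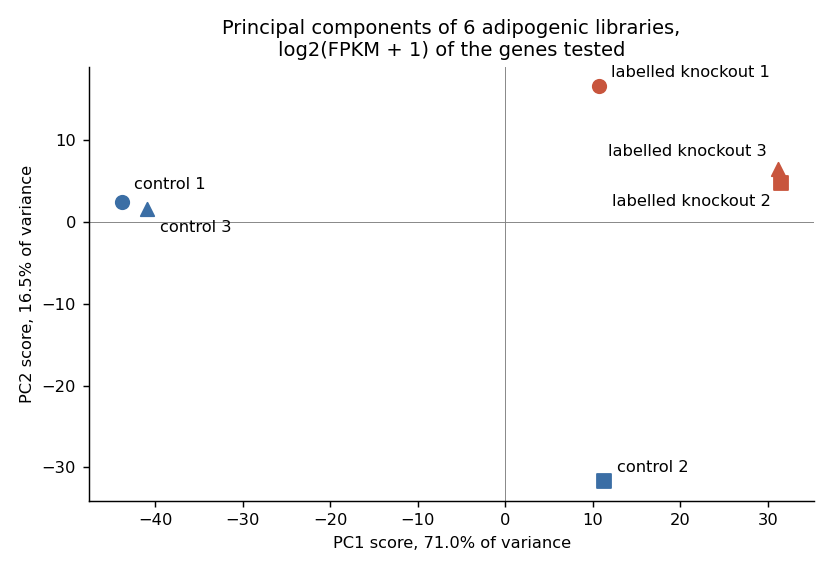
Scores of the 6 libraries on the leading 2 principal components of log2(FPKM + 1) over the genes tested; blue points are control libraries and red points are libraries labelled knockout. Controls 1 and 3 sit together at -43.8 and -40.9, while control 2 lies at 11.3 on the horizontal axis, beside the library labelled knockout 1 at 10.7.

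The labelled cell type was checked against marker genes. Of 18 stromal markers, 14 passed the filter on low values, with Itgb1, Cd44, Pdgfrb and Prrx1 among them, whereas Thy1 (0.206 to 0.51 FPKM), Nt5e (0.345 to 0.818 FPKM) and Lepr (0.543 to 1.13 FPKM) stayed low. Of 25 macrophage genes, 24 passed the filter. Their summed level was 21947, 11050.0 and 22012 FPKM in the control libraries and 9830.1, 8207 and 8409.5 FPKM in the libraries labelled knockout, far above the stromal sum of 593, 589 and 579.5 FPKM in the control libraries and 647, 675 and 668 FPKM in the libraries labelled knockout. Lyz2, a lysozyme of macrophages, stood at 13878, 5456 and 14411 FPKM in the control libraries and 5010.3, 3845 and 3986 FPKM in the libraries labelled knockout. The labelled stem cells thus held abundant macrophage transcripts in all 6 libraries. The macrophage and stromal lists hold unlike genes, so their sums do not measure shares of cells. A list of collagen and matrix genes, described below, summed to 4155 to 5235 FPKM over the 6 libraries. Of 15 endothelial markers 6 passed the filter, of 10 neutrophil markers 2 did, and of 16 lymphoid, erythroid and mast cell markers none did, with 8 of them listed at 0 in all 6 libraries. Markers of mature adipocytes were near 0: Adipoq stood at 0.0381 to 0.277 FPKM, Plin1 at 0 to 0.0799 FPKM, Cidec at 0 to 0.0656 FPKM and Lep at 0 to 0.0316 FPKM over the 6 libraries. In bulk RNA, fewer cells of a type and less RNA per cell cannot be told apart, and how far a change in the share of macrophages contributed to the results below was not tested.

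Of the 12214 genes tested, 1707 passed at a limma adjusted p under 0.05, with 1032 (8.45%) higher in the libraries labelled knockout and 675 (5.53%) lower. Of these, 172 rose and 117 fell by more than 2-fold on the log2(FPKM + 1) scale, which understates changes of low genes. The groups did not overlap for 2560 genes higher (21.0%) and 2273 genes lower (18.6%). All 1707 genes that passed were among these. A remark below that the groups of a passing gene were apart therefore adds no support to its call. Without control 2, 12000 genes were tested and 2477 were higher (20.6%) and 2734 lower (22.8%). The counts of list members below are to be read beside these shares. Of the 1707 genes, 1663 also passed in the same direction without control 2, and none had the opposite sign. With another library left out, 452 genes passed without control 1, 439 without control 3, and 578, 99 and 86 without the library labelled knockout 1, 2 and 3. In all, 81 genes passed with each of the 6 libraries left out in turn, and 11 of the genes named by rule were among them, namely Fkbp5, Tsc22d3, Mmp12, Nqo1, Chil3, Clec7a, Nr1d2, Col4a1, Col4a2, Adamts1 and Fst. When each library was rescaled to the same sum of FPKM (TPM), 947 genes were higher and 261 lower, and the median difference of all genes moved from -0.01 to 0.14. Differences in a list with a median of about that size were therefore not read as a direction. The filter also shaped what could be seen, since a gene high in controls 1 and 3 only could not pass it. Nos2, the inducible nitric oxide synthase, was one such gene at 26.8, 0.0433 and 21 FPKM in the control libraries and 0.603, 0 and 0.0119 FPKM in the libraries labelled knockout. Conversely, 99 of the genes higher were under 1 FPKM in every control and 44 of the genes lower were under 1 FPKM in every library labelled knockout. Such genes met the filter only through the group where they were high, so that they had to differ and their p-values lend no support. Of the genes named below these are Gdf6, Zbtb16, Map7d2, Arntl, Myocd, Ibsp, Nog, Wnt11, Cyp26b1 and Emcn among the higher and Ednrb and Sfrp4 among the lower. Ednrb and Sfrp4 were not tested without control 2. The list counts below still include such genes. Among them are Zbtb16 in the glucocorticoid list, Arntl in the clock list and Gdf6 and Nog in the BMP list. Others are Myocd in the contractile list, Ibsp in the osteoblast list and Wnt11 and Sfrp4 in the Wnt list. Cyp26b1 is in the retinoic acid list, and Emcn and Ednrb are in the endothelial list.

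The largest increases included genes of the glucocorticoid response, matrix and stress proteins and a BMP family ligand. Fkbp5 (ENSMUSG00000024222, chromosome 17, 28399094 to 28517527 of GRCm38), which encodes a co-chaperone of steroid receptors, stood at 3.91, 5.46 and 3.69 FPKM in the control libraries and 29.9, 42.8 and 41.9 FPKM in the libraries labelled knockout, a 8.78-fold higher mean (log2 difference 2.87, SE 0.185, limma adjusted p = 0.00189). Mgp, an inhibitor of calcification, stood at 13.8, 24.3 and 11.5 FPKM in the control libraries and 89.9, 93.2 and 103 FPKM in the libraries labelled knockout (log2 difference 2.52, SE 0.26, limma adjusted p = 0.00659). Cryab, a small heat shock protein, stood at 25.6, 45.2 and 24.5 FPKM in the control libraries and 145, 154 and 179.6 FPKM in the libraries labelled knockout (log2 difference 2.34, SE 0.243, limma adjusted p = 0.00668). In each of the 3 the groups were apart by more than the spread of either, with control 2 the highest of the controls. Cdo1, an enzyme of cysteine breakdown, stood at 4.02, 11.9 and 4.68 against 34.5, 45.3 and 46.5 FPKM (log2 difference 2.58, SE 0.37, limma adjusted p = 0.013). Gdf6, a BMP family ligand active in joints and limbs, rose from under 1 FPKM in every control, at 0.224, 0.582 and 0.437 FPKM in the control libraries and 4.81, 7.13 and 6.91 FPKM in the libraries labelled knockout (log2 difference 2.36, SE 0.168, limma adjusted p = 0.00234). Klhl6 (4.66, 7.05 and 3.38 against 20.3, 26.1 and 24.5 FPKM), Map7d2 (0.148, 0.255 and 0.419 against 3.58, 4.56 and 3.75 FPKM) and Clca3a1 (3.46, 7.05 and 3.94 against 17.4, 22.5 and 21.1 FPKM) also rose, by 2.07, 1.96 and 1.92 on the log2 scale, with limma adjusted p = 0.00747, 0.00185 and 0.00904.

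The largest decreases included genes of macrophages and of detoxification. Clec4n (ENSMUSG00000023349, chromosome 6, 123229843 to 123247021), a C-type lectin receptor for fungal and mycobacterial sugars also called Dectin-2, stood at 255, 57.3 and 264 FPKM in the control libraries and 16.4, 6.43 and 6.52 FPKM in the libraries labelled knockout (log2 difference -4.00, SE 0.681, limma adjusted p = 0.0198). Mmp12, the macrophage elastase, stood at 41.1, 27.3 and 45.7 FPKM in the control libraries and 3.18, 3.85 and 3.78 FPKM in the libraries labelled knockout, a 10.6-fold lower mean (log2 difference -3.06, SE 0.196, limma adjusted p = 0.00189). Nqo1 (ENSMUSG00000003849, chromosome 8, 107388225 to 107403206), a quinone reductase, stood at 22.7, 25.1 and 26.9 FPKM in the control libraries and 2.64, 2.6 and 2.41 FPKM in the libraries labelled knockout, a 9.77-fold lower mean (log2 difference -2.87, SE 0.0781, limma adjusted p = 0.0002). Nqo1 had narrow groups, and control 2 lay between the other controls. Control 2 was the lowest control in Clec4n and Mmp12 and still lay above every library labelled knockout. Ednrb, an endothelin receptor, stood at 12.7, 6.94 and 15 against 0.712, 0.224 and 0.148 FPKM (log2 difference -3.17, SE 0.297, limma adjusted p = 0.00494). Lst1, a gene of leukocytes, stood at 186, 64.6 and 139 against 21.3, 13.9 and 11.9 FPKM (log2 difference -2.88, limma adjusted p = 0.0135). Mmp8, a collagenase of neutrophils and macrophages, stood at 28.6, 8.87 and 35 against 1.87, 2.14 and 2.26 FPKM (log2 difference -2.83, limma adjusted p = 0.0198). In all 3 the libraries labelled knockout lay below every control. Gsta3, a glutathione transferase, was at 13.4, 3.54 and 13.7 against 1.19, 0.171 and 0.206 FPKM, Prkcb, a protein kinase C, at 34.4, 7.51 and 31.7 against 3.16, 2.86 and 2.29 FPKM and Cd72, a receptor of B cells and macrophages, at 74.6, 17.9 and 59.3 against 12.1, 5.49 and 5.84 FPKM, with log2 differences of -2.76, -2.51 and -2.40 and limma adjusted p = 0.0254, 0.0379 and 0.0465. Without control 2 these 3 differences were -3.32, -3.18 and -3.01, and with any other library left out none of the 3 passed.

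**Figure D2:**
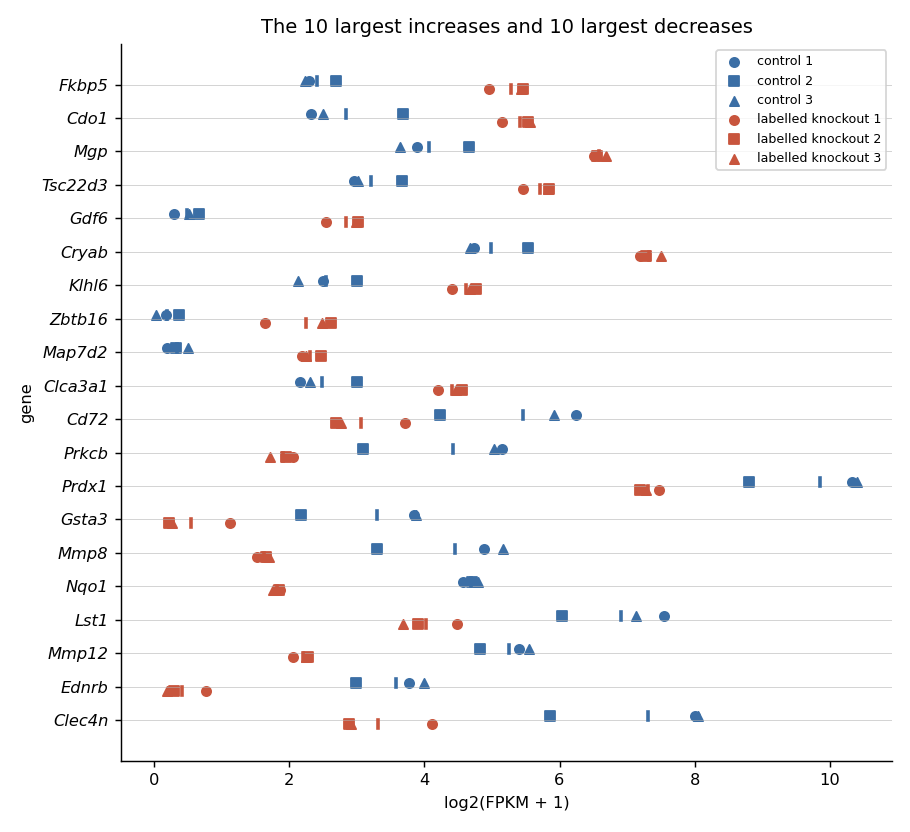
Level of the 10 genes with the largest increase and the 10 with the largest decrease, as log2(FPKM + 1), in each of the 6 libraries; short bars mark the group means on that scale. The 2 groups do not overlap in any of the 20 genes, which the choice of these genes fixed, and control 2 (square) is the control nearest the libraries labelled knockout in most.

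Most of the genes tested that glucocorticoids induce rose. Of 17 listed, 15 were tested, 10 passed as higher and none as lower, beside 8.45% and 5.53% of all genes, and the groups did not overlap in 13, all higher. The median log2 difference was 1.20, against -0.01 over all genes. Tsc22d3, which encodes the anti-inflammatory protein GILZ, stood at 6.74, 11.7 and 7.08 FPKM in the control libraries and 43.1, 56.6 and 56.1 FPKM in the libraries labelled knockout (log2 difference 2.50, SE 0.22, limma adjusted p = 0.00419). Zbtb16, a transcriptional repressor, stood at 0.127, 0.298 and 0.0234 FPKM in the control libraries and 2.12, 5.16 and 4.59 FPKM in the libraries labelled knockout (log2 difference 2.05, SE 0.275, limma adjusted p = 0.0109), so that it was under 1 FPKM in every control. Mt1, a metallothionein that binds zinc, stood at 135, 169.9 and 136 FPKM in the control libraries and 372, 356 and 357 FPKM in the libraries labelled knockout (log2 difference 1.30, SE 0.104, limma adjusted p = 0.00334). Control 2 was the highest control in the 3 genes and lay below every library labelled knockout. Klf9, a Krüppel-like factor, stood at 6.97, 7.12 and 7.36 against 15.7, 21.5 and 19.5 FPKM (log2 difference 1.28, limma adjusted p = 0.0045). Pdk4, a kinase that turns cells from glucose to fatty acid oxidation, stood at 17.4, 42 and 19.9 against 86.3, 96.8 and 94.8 FPKM (log2 difference 1.88, limma adjusted p = 0.0198). Sgk1, a serum and glucocorticoid regulated kinase, stood at 38.3, 25.6 and 41.1 against 59.1, 54.9 and 57.3 FPKM (log2 difference 0.72, limma adjusted p = 0.0499), close to the threshold. Mt1, Klf9, Pdk4 and Sgk1 were picked after their values were seen, and the other members named came by rule. Without control 2, 11 members were higher and 2 lower, beside 20.6% and 22.8% of all genes. With another library left out 7 to 8 were higher without control 1, control 3 or the library labelled knockout 1, and 4 without the library labelled knockout 2 or 3. Both groups had received the same dose of dexamethasone.

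Clock genes moved in both directions. Of 16 tested of 18 listed, 3 passed as higher and 6 as lower, beside 8.45% and 5.53% of all genes, and without control 2 the counts were 4 and 7. Arntl, which encodes the activator BMAL1, stood at 0.914, 0.413 and 0.862 FPKM in the control libraries and 3.06, 3.05 and 2.99 FPKM in the libraries labelled knockout (log2 difference 1.24, SE 0.133, limma adjusted p = 0.0069). Per1, a repressor that glucocorticoids also induce, stood at 8.65, 5.95 and 8.22 against 16.1, 20.1 and 19.9 FPKM (log2 difference 1.20, SE 0.155, limma adjusted p = 0.01). Cry1, a partner of PER proteins, stood at 2.75, 3.12 and 3.47 against 4.99, 4.65 and 4.41 FPKM (log2 difference 0.47, limma adjusted p = 0.0253). All 3 were higher in every library labelled knockout, and Arntl met the filter only through these libraries. Nr1d2, which encodes the Arntl repressor REV-ERB beta, stood at 13.4, 16.4 and 13 FPKM in the control libraries and 4.9, 5.52 and 5.07 FPKM in the libraries labelled knockout (log2 difference -1.30, SE 0.0998, limma adjusted p = 0.00287). Dbp, a clock output factor, stood at 3.54, 8.73 and 3.9 against 1.03, 1.7 and 1.65 FPKM (log2 difference -1.30, limma adjusted p = 0.0468), with control 2 the highest control. Tef, of the same family, stood at 11.3, 14.8 and 10.9 against 5.79, 7.07 and 7.02 FPKM (log2 difference -0.80, limma adjusted p = 0.0195). The 3 were lower in every library labelled knockout, and Nr1d1, which encodes REV-ERB alpha, stood at 13, 12.9 and 13.2 against 11.5, 12.9 and 11.2 FPKM (log2 difference -0.13, limma adjusted p = 0.239). The time of day at which the cultures were collected is not given in the sources used here, and its part in these values was not tested. With the library labelled knockout 2 or 3 left out, Nr1d2 alone of the list passed as lower and no member as higher, and at TPM 3 members were higher and 2 lower.

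Most genes of the NRF2 list fell. The list holds the regulators Nfe2l2, which encodes NRF2, and Keap1 beside targets. Of 19 genes listed and tested, 13 passed as lower (5.53% of all genes) and none as higher, and the median log2 difference was -1.40. Prdx1, a peroxiredoxin, stood at 1282, 447 and 1356 FPKM in the control libraries and 176, 146 and 154 FPKM in the libraries labelled knockout (log2 difference -2.53, SE 0.436, limma adjusted p = 0.02). Srxn1, which reactivates oxidised peroxiredoxins, stood at 165, 102 and 183 FPKM in the control libraries and 35.2, 23.5 and 26.4 FPKM in the libraries labelled knockout (log2 difference -2.34, SE 0.258, limma adjusted p = 0.00713). Gclm, the modifier subunit of the enzyme that starts glutathione synthesis, stood at 91.2, 52.1 and 103 FPKM in the control libraries and 20.3, 14.9 and 16.4 FPKM in the libraries labelled knockout (log2 difference -2.14, SE 0.27, limma adjusted p = 0.0097). In these genes, whose promoter windows are printed above, control 2 was the lowest control and remained above every library labelled knockout. Txnrd1, a thioredoxin reductase, stood at 126, 88.1 and 134 against 41.5, 28.3 and 30.2 FPKM (log2 difference -1.77, limma adjusted p = 0.00847). Gstm1, a glutathione transferase, stood at 103, 96.6 and 109.5 against 47, 44.5 and 47 FPKM (log2 difference -1.14, SE 0.0667, limma adjusted p = 0.00169), with the controls within a narrow range. Hmox1, heme oxygenase, stood at 2208, 565 and 2236 against 532, 389 and 443 FPKM (log2 difference -1.64, limma adjusted p = 0.102), and Slc7a11, the cystine importer, at 47.4, 1.88 and 59.6 against 3.29, 0.739 and 0.737 FPKM (log2 difference -3.12, limma adjusted p = 0.137). In both, control 2 lay near or among the libraries labelled knockout. Gclm, Txnrd1, Gstm1, Hmox1 and Slc7a11 were picked after their values were seen. Without control 2, 18 of 19 were lower. With another library left out, 8 were lower without control 1, control 3 or the library labelled knockout 1, and 3 without the library labelled knockout 2 or 3.

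Iron handling genes that macrophages use fell in part, with 3 of 12 tested lower (5.53% of all genes) and none higher (8.45%). Slc11a1, the iron transporter of phagosomes, stood at 236, 122 and 224 FPKM in the control libraries and 76.9, 34.7 and 37.1 FPKM in the libraries labelled knockout (log2 difference -1.99, SE 0.389, limma adjusted p = 0.0276). Slc40a1, the iron exporter ferroportin, stood at 12.9, 27.4 and 13.2 FPKM in the control libraries and 3.86, 6.42 and 5.72 FPKM in the libraries labelled knockout (log2 difference -1.51, SE 0.321, limma adjusted p = 0.0338). Ftl1, the ferritin light chain, stood at 3039, 3593 and 3349 against 2270.1, 2070.4 and 2257 FPKM (log2 difference -0.59, limma adjusted p = 0.0165). Control 2 was the lowest control for Slc11a1 and the highest for Slc40a1 and Ftl1, and the libraries labelled knockout lay below all controls in each. At TPM 1 member was lower, without control 2 there were 7, and with any other library left out at most 1 was. Ferritin genes have many pseudogenes, and how the authors' counting split such reads is not given in the sources used here.

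Lipid genes changed in both directions. Of 19 adipocyte genes tested of 25 listed, 3 passed as higher and 2 as lower, beside 8.45% and 5.53% of all genes. The median of 0.15 was about as large as the shift that rescaling gave to all genes. Fabp4, a fatty acid carrier of adipocytes and macrophages, stood at 12.7, 19.6 and 13 FPKM in the control libraries and 39.1, 35.2 and 39.2 FPKM in the libraries labelled knockout (log2 difference 1.29, SE 0.169, limma adjusted p = 0.0102). Plin2, a coat protein of lipid droplets in most cell types, stood at 77.5, 66.2 and 79.5 FPKM in the control libraries and 134, 146 and 159 FPKM in the libraries labelled knockout (log2 difference 0.97, SE 0.1, limma adjusted p = 0.00659). Pnpla2, the lipase that starts triglyceride breakdown, stood at 21.6, 18 and 20.1 against 23.9, 28.4 and 28.6 FPKM (log2 difference 0.42, limma adjusted p = 0.0464). The fatty acid transporter Cd36 went the other way, at 214, 165 and 228 FPKM in the control libraries and 63.1, 89.1 and 85.1 FPKM in the libraries labelled knockout (log2 difference -1.35, SE 0.178, limma adjusted p = 0.0106), and Slc27a1, another fatty acid transporter, stood at 34.9, 29.4 and 37.4 against 26, 23.1 and 23.5 FPKM (log2 difference -0.46, limma adjusted p = 0.0379). Pparg overlapped between groups, at 3.85, 10.5 and 4.45 FPKM in the control libraries and 6.89, 12.4 and 10.8 FPKM in the libraries labelled knockout (log2 difference 0.68, SE 0.374, limma adjusted p = 0.252), with control 2 within the range of the libraries labelled knockout. Of 12 genes of cholesterol efflux and lysosomal release, 3 were lower and none higher. Lipa, the lysosomal acid lipase, stood at 308, 433 and 322 FPKM in the control libraries and 160.2, 152 and 153 FPKM in the libraries labelled knockout (log2 difference -1.17, SE 0.137, limma adjusted p = 0.00824). Mylip, which degrades the LDL receptor, stood at 17.1, 19.7 and 18.1 against 7.53, 10.7 and 11 FPKM (log2 difference -0.86, limma adjusted p = 0.0196), and Abcg1, a cholesterol exporter, at 19, 14.5 and 16 against 10.1, 10.2 and 9.54 FPKM (log2 difference -0.67, limma adjusted p = 0.0149). Among genes of cholesterol synthesis and uptake Srebf2, a transcription factor of this pathway, stood at 35.8, 35.1 and 35.9 against 30.7, 30.2 and 29.5 FPKM (log2 difference -0.23, limma adjusted p = 0.0325) and was lower. At TPM no gene of that list passed. Among 25 lysosomal genes none passed, with Ctsd at 1495, 2430.5 and 1449.7 against 2339, 2528 and 2566 FPKM (log2 difference 0.51, limma adjusted p = 0.154) and Psap at 2392, 2900.0 and 2201 against 2693, 2789 and 2742 FPKM (log2 difference 0.14, limma adjusted p = 0.423), but 10 were higher and 2 lower without control 2. The cAMP list, which the phosphodiesterase inhibitor of the medium bears on, had 10 of 20 members tested and 2 passing, both lower. Prkar2b, a regulatory subunit of protein kinase A, stood at 18.6, 17.9 and 21.2 against 13, 13.3 and 13.1 FPKM (log2 difference -0.51, limma adjusted p = 0.0134) and Adcy7, an adenylyl cyclase, at 37, 42.4 and 33.7 against 24.3, 29 and 25.6 FPKM (log2 difference -0.50, limma adjusted p = 0.0341). At TPM no member passed. Among members not tested, Nr4a2 stood at 0.93, 0.612 and 1.2 against 0.289, 0.301 and 0.337 FPKM. Nr4a3, Pde3b, Pde4d and Pde7b were also lower in every library labelled knockout, Pde3a was higher in each, and the other untested members overlapped. Leaving out control 2 gave 8 higher and 6 lower adipocyte genes, 3 higher and 4 lower genes of cholesterol efflux, 7 higher and 3 lower genes of cholesterol synthesis and 5 lower cAMP genes. With the library labelled knockout 2 or 3 left out, no member of the lipid, cholesterol, lysosome or cAMP lists passed.

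Several genes of protein folding in the endoplasmic reticulum fell, with 7 of 15 lower (5.53% of all genes) and none higher (8.45%). The median log2 difference was -0.46. Sdf2l1 stood at 87.9, 73.6 and 89.4 FPKM in the control libraries and 41.1, 47.3 and 49.9 FPKM in the libraries labelled knockout (log2 difference -0.84, SE 0.109, limma adjusted p = 0.0102). Hsp90b1, the chaperone GRP94, stood at 209, 179 and 224 FPKM in the control libraries and 126, 126 and 130.1 FPKM in the libraries labelled knockout (log2 difference -0.67, SE 0.0934, limma adjusted p = 0.0122). Creld2 stood at 45, 38.3 and 45.6 against 27.5, 27.8 and 26.5 FPKM (log2 difference -0.63, limma adjusted p = 0.0101). All controls lay above all libraries labelled knockout in the 3 genes. After rescaling to TPM 3 members were lower and 1 higher, without control 2 there were 12 lower, and none passed without the library labelled knockout 2 or 3. In the ATF4 list of amino acid stress 3 of 18 were higher and none lower, beside 8.45% and 5.53% of all genes. Phgdh, which starts serine synthesis, stood at 38.8, 49 and 36.8 FPKM in the control libraries and 97.4, 93.1 and 103 FPKM in the libraries labelled knockout (log2 difference 1.23, SE 0.118, limma adjusted p = 0.00531). Sesn2 stood at 13.8, 14.4 and 14.4 against 18.2, 18.5 and 18.3 FPKM (log2 difference 0.35, limma adjusted p = 0.013) and Cebpg, a partner of ATF4, at 8.21, 9.14 and 8.86 against 10.6, 11.4 and 11.9 FPKM (log2 difference 0.33, limma adjusted p = 0.0315), smaller steps with narrow groups. With any library but control 2 left out, at most 1 member of this list was higher, and without control 2 there were 8 higher and 2 lower.

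Several genes of the p53 list rose, with 7 of 15 higher (8.45% of all genes) and none lower (5.53%). The list holds Trp53, which encodes p53, beside targets. Cdkn1a, the cell cycle inhibitor p21, stood at 74.3, 71.1 and 73.2 FPKM in the control libraries and 122, 123 and 121 FPKM in the libraries labelled knockout (log2 difference 0.74, SE 0.0497, limma adjusted p = 0.00214), and Mdm2, which degrades p53, at 44.3, 37.7 and 44.6 against 73.6, 66.2 and 65.2 FPKM (log2 difference 0.68, limma adjusted p = 0.0107). Both were picked after their values were seen. Phlda3, an inhibitor of AKT, stood at 54.2, 76.2 and 56.3 FPKM in the control libraries and 132, 143 and 148 FPKM in the libraries labelled knockout (log2 difference 1.18, SE 0.14, limma adjusted p = 0.00841). Eda2r, a receptor of the TNF family, stood at 2.14, 3.3 and 2.66 against 7.37, 8.15 and 7.32 FPKM (log2 difference 1.23, SE 0.125, limma adjusted p = 0.0064), and Ccng1, cyclin G1, at 81.3, 100.4 and 88.5 against 156, 165 and 165 FPKM (log2 difference 0.85, SE 0.0892, limma adjusted p = 0.00674). The groups were apart in all 5, as in every gene that passed, and in Phlda3, Eda2r and Ccng1 control 2 was the highest control. The count fell to 1 without the library labelled knockout 2 or 3, and without control 2 there were 9 higher and 2 lower. Of 30 genes of DNA replication and mitosis 1 passed as higher and 2 as lower, at a median of -0.50. The groups did not overlap for 20 members lower and 1 higher, beside 18.6% and 21.0% of all genes. Rrm2, a ribonucleotide reductase subunit, stood at 33.9, 61.7 and 35.8 FPKM in the control libraries and 78.3, 85.7 and 91.2 FPKM in the libraries labelled knockout (log2 difference 0.99, SE 0.233, limma adjusted p = 0.0438). Plk1, a mitotic kinase, stood at 13.8, 19.8 and 11.9 against 7.41, 8.08 and 9.19 FPKM (log2 difference -0.78, limma adjusted p = 0.0444), and Tyms, thymidylate synthase, at 3.52, 4.37 and 3.77 against 2.4, 2.64 and 2.56 FPKM (log2 difference -0.46, limma adjusted p = 0.0245). Control 2 stood apart in this list too. The mean log2(FPKM + 1) of its members was 3.54, 4.28 and 3.52 in the control libraries and 3.27, 3.35 and 3.41 in the libraries labelled knockout, so that control 2 was the highest. Without control 2, 14 members were lower and 2 higher, beside 22.8% and 20.6% of all genes, and with any other library left out, or at TPM, none passed.

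Housekeeping lists moved little. None of 32 nuclear genes of oxidative phosphorylation passed, with Cox4i1 at 204, 208 and 201 against 218, 215 and 228 FPKM (log2 difference 0.11, limma adjusted p = 0.232) and Atp5b at 197, 189.8 and 196 against 218, 208 and 216 FPKM (log2 difference 0.14, limma adjusted p = 0.139). None of 13 mitochondrially encoded genes passed, with mt-Co1 at 5108, 4986 and 5962 against 4648, 4735 and 4488 FPKM (log2 difference -0.21, limma adjusted p = 0.202) and mt-Cytb at 1793, 2162 and 2003 against 1977, 1898 and 1854 FPKM (log2 difference -0.05, limma adjusted p = 0.717). Of 40 cytosolic ribosomal protein genes 2 passed, both higher. The groups did not overlap for 27 members higher and 3 lower, beside 21.0% and 18.6% of all genes, at a median of 0.15. Rplp0 stood at 807, 829 and 784 against 950.3, 948 and 989 FPKM (log2 difference 0.25, limma adjusted p = 0.0486) and Rpl35 at 182, 184 and 179.9 against 216, 206 and 227 FPKM (log2 difference 0.25, limma adjusted p = 0.0451). Without control 2, 21 of the 40 were higher, at a median of 0.17, a step close to the shift from rescaling. At TPM none of the 40 passed in the 6 libraries.

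Some matrix genes rose, basement membrane collagens among them. Of 26 tested of 29 listed, 11 passed as higher and none as lower, beside 8.45% and 5.53% of all genes. Col4a1 stood at 90.5, 91.3 and 84.1 FPKM in the control libraries and 167, 187 and 184 FPKM in the libraries labelled knockout (log2 difference 1.01, SE 0.0699, limma adjusted p = 0.00228). Col4a2, its partner in the same collagen, stood at 77.5, 72.3 and 70.1 FPKM in the control libraries and 134, 145 and 147 FPKM in the libraries labelled knockout (log2 difference 0.95, SE 0.0673, limma adjusted p = 0.00234). Col11a1, a fibrillar collagen of cartilage, stood at 2.73, 4.23 and 3.36 against 8.81, 8.87 and 9.68 FPKM (log2 difference 1.20, SE 0.131, limma adjusted p = 0.0069). In Col4a1 and Col4a2 the controls lay within a narrow range, control 2 included, and both passed with each library left out. The median of the list was 0.19. Without control 2, 12 members were higher and 6 lower, and without the library labelled knockout 2 or 3 the 2 that were higher were all that passed. Of 17 enzymes of collagen maturation 4 were higher. Loxl3, a lysyl oxidase, stood at 68.6, 82.4 and 62.9 against 122, 135 and 134 FPKM (log2 difference 0.87, limma adjusted p = 0.00993), Loxl4 at 5.08, 4.79 and 4.79 against 10.01, 8.22 and 9.48 FPKM (log2 difference 0.79, limma adjusted p = 0.00668) and P4ha3, a prolyl hydroxylase, at 10.6, 12 and 10.6 against 16.1, 16.4 and 17.1 FPKM (log2 difference 0.54, limma adjusted p = 0.0102). Without control 2 this list had 5 higher and 5 lower, and at most 1 was higher without the library labelled knockout 2 or 3. Of 15 metalloproteinases and inhibitors 1 was higher and 3 lower. Adamts1, which cleaves proteoglycans, stood at 5.67, 3.97 and 5.6 FPKM in the control libraries and 17.9, 24.3 and 21.4 FPKM in the libraries labelled knockout (log2 difference 1.87, SE 0.159, limma adjusted p = 0.00378), opposite to Mmp12 and Mmp8, and Mmp27 stood at 11.2, 14 and 11.4 against 2.94, 6.41 and 5.55 FPKM (log2 difference -1.19, limma adjusted p = 0.0318). The metalloproteinase list had 2 higher and 8 lower without control 2.

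Several contractile genes of smooth muscle rose, with 8 of 17 higher (8.45% of all genes) and none lower (5.53%) and a median of 0.73. Myocd, the myocardin coactivator of this programme, stood at 0.218, 0.61 and 0.365 FPKM in the control libraries and 2.96, 4.03 and 3.95 FPKM in the libraries labelled knockout (log2 difference 1.73, SE 0.149, limma adjusted p = 0.00397). Mylk, the myosin light chain kinase, stood at 4.44, 7.47 and 4.06 against 10.9, 12.7 and 13.8 FPKM (log2 difference 1.13, limma adjusted p = 0.0249). Ccn1, a matricellular protein, stood at 115, 170.2 and 118 against 241, 296 and 297 FPKM (log2 difference 1.06, limma adjusted p = 0.019). Acta2, smooth muscle actin, stood at 848, 1159 and 829.8 FPKM in the control libraries and 1309, 1437 and 1494 FPKM in the libraries labelled knockout (log2 difference 0.59, limma adjusted p = 0.0513) and was picked after its values were seen. Control 2 was the highest control in the 4 and lay between the groups for Mylk, Ccn1 and Acta2. Myocd met the filter only through the libraries labelled knockout. The count was 15 higher and 1 lower without control 2, 1 higher without control 1 or control 3, 4 higher without the library labelled knockout 1, and none without the library labelled knockout 2 or 3. The stromal markers moved alongside, with 3 of 14 higher and 1 lower. Mcam, a marker of perivascular cells, stood at 1.11, 1.5 and 1.16 against 3.18, 4.2 and 4.21 FPKM (log2 difference 1.10, limma adjusted p = 0.00747), and Pdgfrb, a receptor of pericytes, at 49.4, 39.9 and 46.8 against 71.9, 87.1 and 84 FPKM (log2 difference 0.82, limma adjusted p = 0.0113). Prrx1, the gene whose promoter drives the Cre, stood at 16.1, 15.8 and 16.7 against 19.96, 22.6 and 21.9 FPKM (log2 difference 0.39, limma adjusted p = 0.0196), while Ly6a, the antigen Sca-1, stood at 44.3, 46.2 and 31.5 against 22.4, 22.2 and 18.9 FPKM (log2 difference -0.90, limma adjusted p = 0.0221) and was lower. At TPM 6 stromal markers were higher and none lower, and without control 2 there were 8 higher and 3 lower.

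Signals of the BMP family and their antagonists changed on both sides. Of 16 genes tested of 20 listed, 8 were higher and 1 lower, beside 8.45% and 5.53% of all genes. The 8 include Gdf6 and Nog, which met the filter only through the libraries labelled knockout. Among ligands, Bmp4 stood at 0.947, 1.96 and 1.04 FPKM in the control libraries and 3.72, 6.13 and 6.65 FPKM in the libraries labelled knockout (log2 difference 1.48, SE 0.244, limma adjusted p = 0.0185), beside Gdf6 above. Among antagonists, Nog stood at 0.574, 0.564 and 0.728 FPKM in the control libraries and 2.51, 4.16 and 4.41 FPKM in the libraries labelled knockout (log2 difference 1.51, SE 0.179, limma adjusted p = 0.00841), while Grem1 fell, at 112, 82.6 and 125 FPKM in the control libraries and 51.4, 41.6 and 40.7 FPKM in the libraries labelled knockout (log2 difference -1.23, SE 0.175, limma adjusted p = 0.0128). Grem1 had the higher level in FPKM of the 2 antagonists in every library, and control 2 was its lowest control. Of 20 genes of TGF-beta and activin signalling 6 were higher and none lower. Fst, the activin inhibitor follistatin, stood at 3.46, 3.47 and 4.18 FPKM in the control libraries and 10.4, 11.8 and 11.9 FPKM in the libraries labelled knockout (log2 difference 1.40, SE 0.0897, limma adjusted p = 0.00189). Tgfb2, a ligand, stood at 12.1, 14.1 and 12.7 against 19.8, 23.4 and 22.6 FPKM (log2 difference 0.72, limma adjusted p = 0.00988). The libraries labelled knockout lay above every control in both genes. Without the library labelled knockout 2 the list had 2 members higher, without the library labelled knockout 3 it had 1, and without control 2 it had 12 higher and 6 lower. Of the BMP list, none passed without the library labelled knockout 2, and none without the library labelled knockout 3, while 9 were higher and 3 lower without control 2.

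Of 21 Wnt genes tested of 32 listed, 3 were higher and 2 lower, beside 8.45% and 5.53% of all genes. The same shares stand beside the other counts over all 6 libraries in this paragraph. Wnt11, Sfrp4, Cyp26b1, Ibsp, Emcn and Ednrb met the filter only through the group where they were high, so their p-values lend no support. The receptor Fzd8 stood at 3.51, 3.9 and 3.3 against 5.22, 6.99 and 7.15 FPKM (log2 difference 0.70, limma adjusted p = 0.0219), and the ligands Wnt11 at 0.456, 0.531 and 0.91 against 1.35, 1.69 and 1.49 FPKM (log2 difference 0.63, limma adjusted p = 0.0334) and Wnt9a at 0.914, 1.19 and 0.983 against 1.71, 1.63 and 1.71 FPKM (log2 difference 0.40, limma adjusted p = 0.0347). Sfrp4, a secreted inhibitor, stood at 2.08, 2.24 and 2.22 FPKM in the control libraries and 0.548, 0.381 and 0.453 FPKM in the libraries labelled knockout (log2 difference -1.12, SE 0.0856, limma adjusted p = 0.00283), and the ligand Wnt4 at 4.19, 3.66 and 4.43 against 1.97, 2.24 and 2.63 FPKM (log2 difference -0.64, limma adjusted p = 0.0186). Of 10 retinoic acid genes Cyp26b1, which degrades retinoic acid, stood at 0.5, 0.634 and 0.588 against 2, 3.45 and 3.15 FPKM (log2 difference 1.28, limma adjusted p = 0.00991) and Rarg, a receptor, at 10.6, 11.1 and 11.2 against 14.5, 15.3 and 15.4 FPKM (log2 difference 0.42, limma adjusted p = 0.0102), both higher. In the insulin and IGF list 2 of 18 were higher and 1 lower. Irs2, an adaptor of the insulin receptor, stood at 3.83, 6.33 and 3.91 against 7.46, 11.1 and 11.3 FPKM (log2 difference 0.95, limma adjusted p = 0.0435), and Foxo1, which insulin keeps out of the nucleus, at 1.29, 1.73 and 1.25 against 2.14, 2.15 and 2.47 FPKM with an adjusted p just under the threshold. Igfbp5, an IGF binding protein, stood at 13.8, 3.68 and 16.2 FPKM in the control libraries and 1.15, 1.49 and 1.4 FPKM in the libraries labelled knockout (log2 difference -2.17, SE 0.493, limma adjusted p = 0.04) and did not pass with any library but control 2 left out. Of 11 Hox genes 1 passed, Hoxc6, at 4.25, 4.19 and 4.05 against 5.71, 5.66 and 5.72 FPKM (log2 difference 0.38, limma adjusted p = 0.013). Of 14 osteoblast genes tested of 20 listed, 3 were higher and none lower. Omd, a matrix protein of bone, stood at 0.514, 1.55 and 0.714 against 4.64, 5.83 and 5.9 FPKM (log2 difference 1.78, limma adjusted p = 0.00841), Ibsp, bone sialoprotein, at 0.441, 0.462 and 0.537 against 1.88, 2.64 and 3.21 FPKM (log2 difference 1.26, limma adjusted p = 0.00858), and Spp1, osteopontin of bone and macrophages, at 839.6, 868 and 870.4 against 1204, 1059.7 and 1235 FPKM (log2 difference 0.44, limma adjusted p = 0.0249). Of the 6 endothelial markers tested, Cdh5 (1.06, 0.853 and 1.23 against 2.03, 3.14 and 2.65 FPKM), Emcn (0.63, 0.548 and 0.765 against 1.52, 1.61 and 1.66 FPKM) and Plvap (1.53, 0.962 and 1.68 against 2.63, 2.51 and 2.44 FPKM) were higher at low levels (limma adjusted p = 0.0213, 0.0116 and 0.0419) and Ednrb, above, was lower. These lists also moved with single libraries. Leaving out control 2 gave 8 higher and 2 lower Wnt genes, 2 higher and 1 lower genes of retinoic acid, 4 higher and 1 lower of insulin and IGF, 2 higher Hox genes, 9 higher and 2 lower osteoblast genes and 5 higher endothelial markers. Without the library labelled knockout 2 or 3, no member of these lists was higher and at most 1 of any list was lower.

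Macrophage genes fell in part. Of 24 tested, 7 were lower (5.53% of all genes) and none higher (8.45%), at a median of -0.70. Aif1, the calcium binding protein IBA1, stood at 64.2, 19.1 and 52.4 FPKM in the control libraries and 12.7, 7.83 and 7.56 FPKM in the libraries labelled knockout (log2 difference -2.03, SE 0.47, limma adjusted p = 0.0426). Csf1r, the receptor that macrophages need to survive, stood at 386, 263 and 383 FPKM in the control libraries and 226, 182 and 178 FPKM in the libraries labelled knockout (log2 difference -0.80, SE 0.181, limma adjusted p = 0.04). Coro1a, an actin regulator of leukocytes, stood at 123, 67.5 and 119 against 48.3, 41.9 and 43.4 FPKM (log2 difference -1.15, limma adjusted p = 0.0318). Control 2 lay between the groups in each. Adgre1, the surface antigen F4/80, overlapped at 1171, 227 and 1136 FPKM in the control libraries and 255, 129.6 and 127 FPKM in the libraries labelled knockout (log2 difference -2.05, limma adjusted p = 0.104), and Ptprc, the leukocyte antigen CD45, stood at 23, 11.3 and 22.4 against 9.86, 8.01 and 7.63 FPKM (log2 difference -1.01, limma adjusted p = 0.0647). These 2, and Lyz2 above, were picked after their values were seen. Without control 2, 16 of the 24 were lower and 4 higher, and with any other library left out at most 1 was lower. The ligand of Csf1r went the other way. Csf1 stood at 128, 161 and 126 FPKM in the control libraries and 309.8, 282 and 291 FPKM in the libraries labelled knockout (log2 difference 1.09, SE 0.112, limma adjusted p = 0.00642), and it alone of 20 cytokine and inflammasome genes passed. F13a1 and Chil3, which mark alternatively activated macrophages, also rose. F13a1 stood at 3.45, 1.26 and 3.35 FPKM in the control libraries and 10.4, 11.6 and 11.8 FPKM in the libraries labelled knockout (log2 difference 1.80, SE 0.271, limma adjusted p = 0.0148). Chil3, the lectin YM1, stood at 1.08, 0.937 and 0.983 FPKM in the control libraries and 4.73, 4.58 and 4.45 FPKM in the libraries labelled knockout (log2 difference 1.48, SE 0.0686, limma adjusted p = 0.00105), with control 2 close to the other controls. They are 2 of 4 genes tested of 12 listed, and the counts are too few to describe that state. Of the 8 not tested, Arg1, the arginase of such macrophages, stood at 2.62, 0.107 and 3.24 against 0.167, 0.0952 and 0.0945 FPKM, Clec10a, a lectin, at 1.03, 1.05 and 0.596 against 0.533, 0.622 and 0.599 FPKM and Mgl2, of the same family, at 0.116, 0.137 and 0.0884 against 0, 0 and 0.0251 FPKM, and Retnla was listed at 0 in all 6 libraries.

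Surface receptors, complement and antigen presentation gave mixed counts. Of 9 C-type lectin receptors tested of 12 listed, Clec4n and Clec7a fell. Clec7a, the beta-glucan receptor Dectin-1, stood at 30.03, 36.2 and 34.6 FPKM in the control libraries and 11.8, 12.8 and 12.2 FPKM in the libraries labelled knockout (log2 difference -1.38, SE 0.0839, limma adjusted p = 0.00176), with control 2 the highest control, and it passed with each library left out. Without control 2, 7 of the lectins were lower. Of 15 complement genes 3 were higher and 1 lower, beside 8.45% and 5.53% of all genes. C1qa, a chain of C1q made by macrophages, stood at 524, 407 and 396 against 719, 682 and 693 FPKM (log2 difference 0.67, limma adjusted p = 0.0225), Masp1, a protease of the lectin pathway, at 5.33, 6.34 and 4.77 against 11, 12.4 and 12.3 FPKM (log2 difference 1.00, limma adjusted p = 0.00672), and Cd59a, which blocks the lytic pore, at 6.38, 8.02 and 7.6 against 11.3, 9.96 and 11 FPKM (log2 difference 0.50, limma adjusted p = 0.0264). Cfp, properdin, fell, at 349.6, 138 and 328 FPKM in the control libraries and 64.7, 45.6 and 43 FPKM in the libraries labelled knockout (log2 difference -2.30, SE 0.387, limma adjusted p = 0.0195). The complement list had 6 higher and 7 lower without control 2 and none without the library labelled knockout 2 or 3. Of 16 genes of antigen presentation Cd74, the invariant chain, stood at 8.07, 5.49 and 6.26 against 3.1, 2.48 and 2.8 FPKM (log2 difference -0.99, limma adjusted p = 0.0124) and Psmb9, an immunoproteasome subunit, at 9.28, 5.54 and 7.19 against 3.83, 3.16 and 3.11 FPKM (log2 difference -0.91, limma adjusted p = 0.0262), both lower, and 13 were lower and 2 higher without control 2. Of 9 osteoclast genes none passed, with Tcirg1 at 156, 132 and 147 against 133, 118 and 122 FPKM (log2 difference -0.22, limma adjusted p = 0.135) and Clcn7 at 52.7, 45.7 and 52.3 against 49.8, 40.8 and 40.8 FPKM (log2 difference -0.20, limma adjusted p = 0.24).

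Genes of acute inflammation and the interferon response showed another pattern, in which control 2 stood with the libraries labelled knockout. The 5 genes that were lowest in control 2 relative to controls 1 and 3 were Saa3, Acod1, Fpr1, Marco and Cxcl2, and they are given as a description with no call. Saa3, an acute phase protein, stood at 849, 2.2 and 767 FPKM in the control libraries and 125, 1.04 and 2.06 FPKM in the libraries labelled knockout. Acod1, the enzyme that makes itaconate in activated macrophages, stood at 546, 2.37 and 525 FPKM in the control libraries and 35.8, 0.121 and 0.281 FPKM in the libraries labelled knockout. Marco, a scavenger receptor, stood at 971, 8.98 and 1026 FPKM in the control libraries and 58, 1.16 and 1.15 FPKM in the libraries labelled knockout. In all 3, controls 1 and 3 were high, the library labelled knockout 1 was intermediate, and control 2 was low together with the libraries labelled knockout 2 and 3. Fpr1, a receptor for bacterial peptides, stood at 411, 1.7 and 408 against 32.1, 1.64 and 1.27 FPKM and Cxcl2, a chemokine for neutrophils, at 105, 0.809 and 114 against 19.3, 0.282 and 0.178 FPKM, in the same order. Their limma adjusted p ranged from 0.175 (Marco) to 0.358 (Saa3). S100a8, listed as a neutrophil marker and also made by activated macrophages, stood at 65.8, 2.48 and 86 against 2, 1.22 and 1.82 FPKM (log2 difference -3.36, limma adjusted p = 0.12) and Csf3r, a receptor of the same list, at 28.7, 7.93 and 26.1 against 7.67, 5.19 and 4.64 FPKM (log2 difference -1.52, limma adjusted p = 0.0903), whereas S100a9 was listed at 0 in all 6.

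The whole lists behaved likewise. Of 24 interferon-stimulated genes tested of 25 listed, none passed in the 6 libraries, though their median was -1.89, and all 24 were lower without control 2. Their mean log2(FPKM + 1) was 5.81, 2.59 and 5.34 in the control libraries and 3.07, 2.56 and 2.75 in the libraries labelled knockout. Ifit3, an antiviral effector, stood at 120.3, 4.82 and 79.6 FPKM in the control libraries and 6.16, 3.95 and 3.77 FPKM in the libraries labelled knockout, and Isg15, a ubiquitin-like modifier, at 246, 7.14 and 169 FPKM in the control libraries and 16.1, 8.84 and 13.1 FPKM in the libraries labelled knockout. Control 2 was at the level of the libraries labelled knockout in both, which were picked after their values were seen. By rule, Ifitm3 stood at 905, 202 and 673 against 346, 269 and 300.4 FPKM (log2 difference -0.71, limma adjusted p = 0.398) and Bst2 at 499.6, 93.8 and 361 against 119, 92.2 and 93 FPKM (log2 difference -1.34, limma adjusted p = 0.185). For cytokines and inflammasome genes the mean log2(FPKM + 1) was 4.91, 2.53 and 4.84 in the control libraries and 3.44, 2.24 and 2.28 in the libraries labelled knockout. Il1b stood at 56.4, 0.2 and 53.1 FPKM in the control libraries and 1.87, 0.0278 and 0.0552 FPKM in the libraries labelled knockout (log2 difference -3.41, limma adjusted p = 0.187), and Tnf at 151, 13.6 and 134 FPKM in the control libraries and 71.8, 3.72 and 3.66 FPKM in the libraries labelled knockout (log2 difference -2.52, limma adjusted p = 0.26), both picked after their values were seen. Of 21 chemokines and receptors none passed, and 15 were lower and 2 higher without control 2. Ccl2, a chemokine for monocytes, stood at 506, 81.7 and 468 against 329, 91.9 and 103 FPKM (log2 difference -0.87, limma adjusted p = 0.502), and Ccl7 at 438, 116 and 407 against 379, 189 and 209 FPKM (log2 difference -0.16, limma adjusted p = 0.872). Of 23 genes of glycolysis and the hypoxia response 2 were lower, Ndrg1 at 6.35, 4.49 and 5.45 against 1.71, 3.1 and 3.05 FPKM (log2 difference -0.84, limma adjusted p = 0.0436) and Pfkfb4 at 10.4, 10.4 and 10.3 against 7.89, 8.3 and 8.41 FPKM (log2 difference -0.31, limma adjusted p = 0.02), and 21 were lower without control 2. At TPM neither passed. Their mean log2(FPKM + 1) was 5.96, 4.94 and 5.93 in the control libraries and 5.04, 4.93 and 4.96 in the libraries labelled knockout, with control 2 at the level of the libraries labelled knockout. No condition in the labels separates control 2 from the other controls, and an exchange of libraries was not tested.

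**Figure D3:**
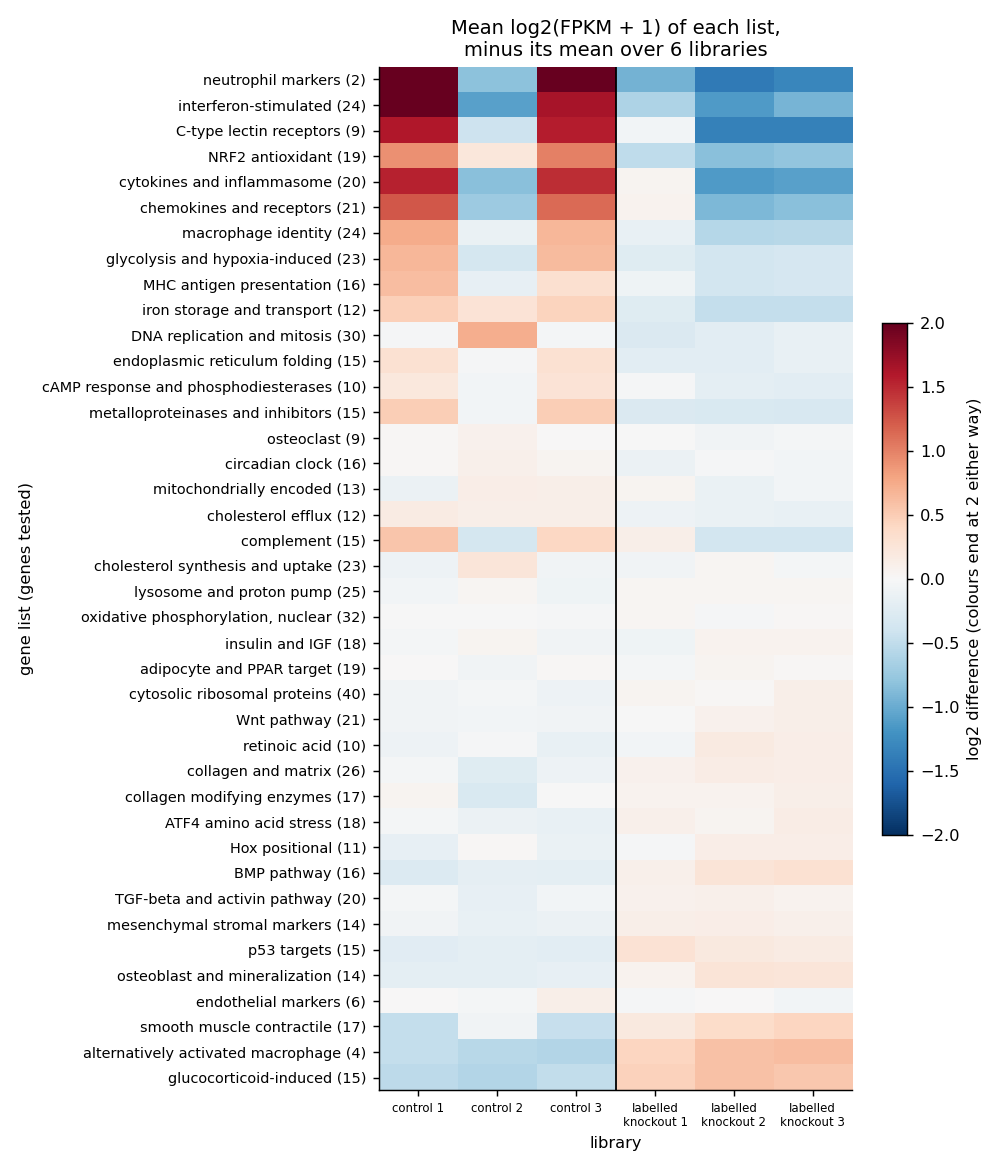
Mean log2(FPKM + 1) of the tested members of each gene list in each library, minus the mean of that list over the 6 libraries, with lists ordered by their median difference. In the interferon, cytokine, chemokine and glycolysis lists control 2 has the colour of the libraries labelled knockout, whereas in the glucocorticoid and p53 lists it has that of the controls and in the NRF2 list it lies between.

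**Figure D4:**
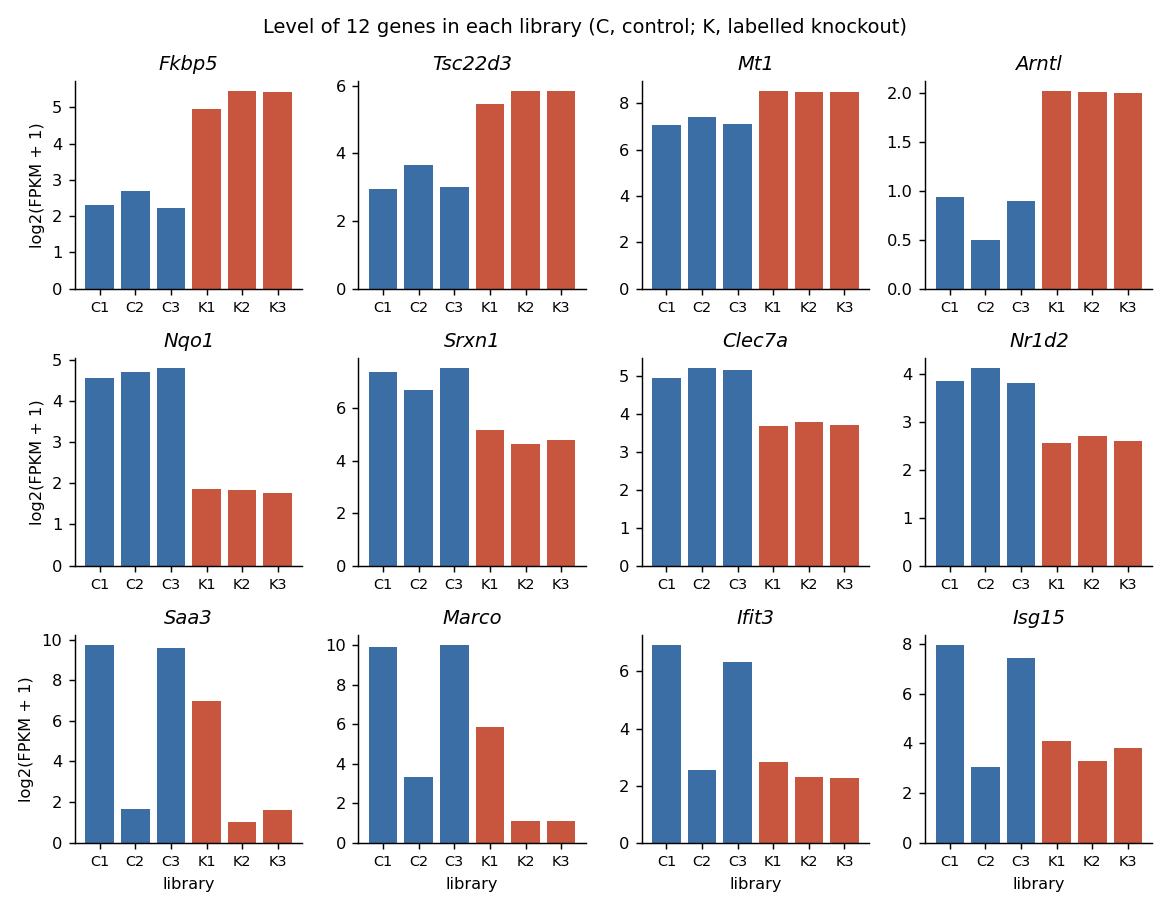
Bars give log2(FPKM + 1) of 12 genes in each library, with control libraries in blue and libraries labelled knockout in red. In the upper and middle rows all 3 controls lie on one side of all libraries labelled knockout, and in the lower row control 2 (C2) lies far below controls 1 and 3.

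The 5 genes highest in control 2 relative to controls 1 and 3 were Atp6v0d2, Trav13-4-dv7, Trav14-3, Pcp4l1 and Mir6904. Atp6v0d2, a proton pump subunit of osteoclasts and macrophages, stood at 2.11, 36.2 and 2.61 FPKM in the control libraries and 16.3, 30.2 and 29.7 FPKM in the libraries labelled knockout (log2 difference 1.77, limma adjusted p = 0.256), so that the libraries labelled knockout 2 and 3 approached control 2. Pcp4l1 stood at 1.31, 15.1 and 2.43 against 3.28, 6.73 and 4.54 FPKM. The T cell receptor segments stood apart likewise, Trav13-4-dv7 at 1.11, 25.8 and 2.08 against 3.87, 13.1 and 12.7 FPKM and Trav14-3 at 1.43, 16.8 and 2.57 against 2.91, 6.77 and 9.32 FPKM, while Cd3d and Cd3e were listed at 0 in all 6 libraries. Segments of this family are alike in sequence, so that their reads are uncertain. Mir6904 was listed at 0, 4.28 and 0 against 0, 2.38 and 1.57 FPKM, and a host transcript cannot be told apart from it here.

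**Figure D5:**
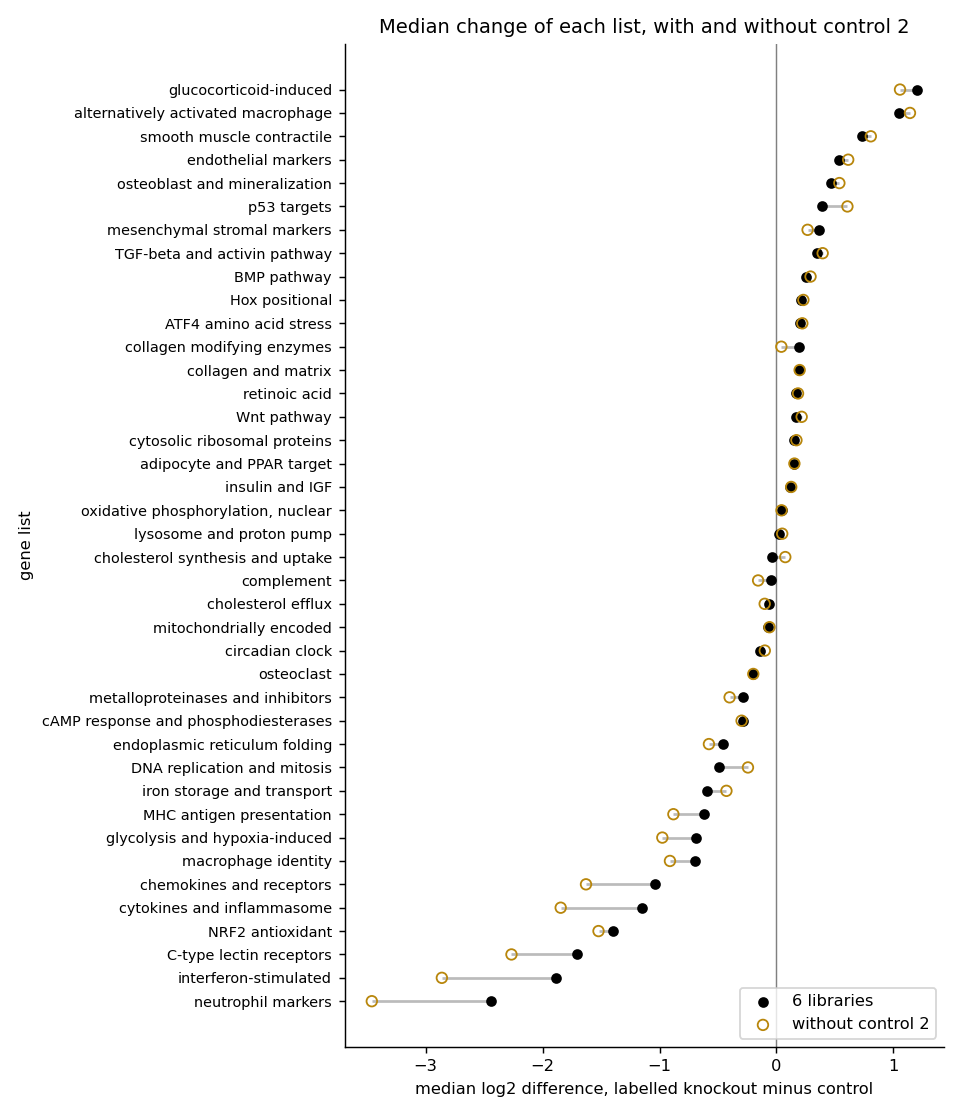
Median log2 difference of the tested members of each gene list, labelled knockout minus control, over all 6 libraries (filled) and without control 2 (open). The interferon list moves from -1.89 to -2.86 and the cytokine list from -1.15 to -1.85, while the glucocorticoid list changes from 1.20 to 1.06 and the NRF2 list from -1.40 to -1.52.

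The difference between labelled knockout and control libraries depended on the medium for many of these genes. Both media held dexamethasone, at a lower dose in osteogenic medium. The part of this dose in the differences was not tested. In a limma fit over all 12 libraries the interaction of genotype and medium passed for 2626 of 12214 genes (21.5%), and for 5356 without control 2. It passed for 12 of 15 glucocorticoid-induced genes, 13 of 16 clock genes and 14 of 19 NRF2 genes. Fkbp5 went in opposite directions. In osteogenic medium it averaged 31.5 FPKM in control and 6.46 FPKM in labelled knockout libraries (log2 difference -2.13, limma adjusted p = 3.66e-05), and the interaction was 5.00 (limma adjusted p = 9.51e-07). Nqo1 averaged 11 FPKM in control and 32.8 FPKM in labelled knockout libraries there (log2 difference 1.49, limma adjusted p = 3.85e-06), against its fall in adipogenic medium (interaction -4.36, limma adjusted p = 1.34e-08). Clec7a averaged 22.9 FPKM in control and 49.5 FPKM in labelled knockout libraries in osteogenic medium (log2 difference 1.08, limma adjusted p = 7.22e-05), also opposite. Per1 averaged 15.2 FPKM in control and 6.28 FPKM in labelled knockout libraries (log2 difference -1.16, limma adjusted p = 0.000386), and Dbp 3.02 FPKM in control and 10.1 FPKM in labelled knockout libraries (log2 difference 1.47, limma adjusted p = 0.00492). Over the whole lists the median log2 difference in osteogenic medium was -0.29 for glucocorticoid-induced genes, with 7 lower (4.26% of all genes in that medium) and none higher (5.04%), and 0.42 for clock genes, with 8 higher and 2 lower. Cdh5, Emcn and Plvap were higher in osteogenic medium as well (limma adjusted p = 0.000348, 8.36e-05 and 0.0004). For the interferon-stimulated list no member passed in osteogenic medium, and 1 of 24 passed the interaction. All p-values for osteogenic medium came from the fit over 12 libraries, so that the wide spread of the adipogenic controls entered them.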

How the data were processed

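RNA-seq was done on MSCs of C57BL/6 mice, with 3 libraries per group. The authors deposited 1 table of FPKM with a column per library, and no column of another kind was used. The study's methods name NEBNext Ultra for library preparation and the HiSeq platform for sequencing, and its reporting summary lists HISAT2 and Ballgown, while the submitters' processing notes name Bowtie 0.12.2 and mm9. Which of these made the table, whether counting used strand and how shared reads were split are not given in the sources used here. The deposited FPKM were found to be scaled already by median ratios, since every library had a median ratio of 1.00 to the geometric mean. From exonic lengths of GENCODE M21 (GRCm38), 98.2% to 98.4% of the values under 30 fragments were whole multiples of 1 fragment within 0.02, which gave 18637163 to 21093453 fragments per adipogenic library. On a gene of 1 kilobase 3 fragments are 0.143 to 0.185 FPKM.

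Genes that reached 1 FPKM in 3 or more of the 6 libraries were tested on log2(FPKM + 1) by limma 3.58.1 (R 4.3.3, trended prior variance), and p-values were adjusted by Benjamini-Hochberg with a threshold of 0.05. The interaction and the differences in osteogenic medium were fitted over all 12 libraries. Exact permutation tests of 3 libraries against 3 cannot give a p below 0.1. Libraries of a group differed by more than sampling noise, with a chi-square per degree of freedom of 3.68 or more. Alternatives were a pseudocount of 0.1, no filter, equal sums (TPM), median ratio scaling, no trend, all 12 libraries, library weights, a replicate block, each library left out, and limma voom on the recovered fragments, which was added after seeing the data. Fits were tested on simulated data. Figures and tables were made in Python 3.11.15 with pandas 2.3.3 and matplotlib 3.10.9.

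The comparison and the 41 gene lists were chosen with earlier results of these data known, and no test was run on a list. Named by rule were Chd7, the 10 largest increases and decreases among passing genes whose groups did not overlap, up to 3 passing genes each way per list (or the 2 of highest mean FPKM), and the 5 genes highest and lowest in control 2, in all 134 genes, of which 109 passed. A further 21 were added after values were seen. A few of the genes named by rule are not reported here. Whether replicate numbers pair the libraries is not given in the sources used here, and the main fit used no pairing. The deviations of same-numbered control and labelled knockout libraries from their group means correlated at 0.50, 0.44 and -0.33. The study's other experiments were not analysed here.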

Additional observations from a re-analysis of the deposited data

Results flagged for a closer look

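Of the 20 genes with the largest changes in adipogenic medium, 19 differed from their change in osteogenic medium by the interaction test in limma (adjusted p under 0.05). The exception was Cd72. The values are differences of log2 differences, adipogenic minus osteogenic. For the increases they were 5.00 for Fkbp5, 2.34 for Cdo1, 2.74 for Mgp, 3.93 for Tsc22d3, 2.20 for Gdf6, 2.64 for Cryab, 3.38 for Klhl6, 3.19 for Zbtb16, 2.10 for Map7d2 and 1.78 for Clca3a1. For the decreases they were -5.31 for Clec4n, -3.36 for Ednrb, -3.71 for Mmp12, -2.72 for Lst1, -4.36 for Nqo1, -3.43 for Mmp8, -2.85 for Gsta3, -2.92 for Prdx1 and -2.52 for Prkcb. These genes were chosen for their change in adipogenic medium, which is itself part of the interaction. The choice thus favoured a large difference, and the count of 19 lends no support to a dependence on medium. Gdf6, Zbtb16, Map7d2 and Ednrb also met the filter only through the adipogenic group where they were high. Fkbp5, Tsc22d3, Klhl6 and Zbtb16 fell past the threshold in osteogenic medium, with log2 differences of -2.13, -1.43, -1.31 and -1.13, and Nqo1 and Mmp12 rose, with differences of 1.49 and 0.66. Clec4n was also higher in every library labelled knockout there, at 51.1, 50.1 and 50.4 against 121, 131 and 129 FPKM. It did not pass (log2 difference 1.31, limma adjusted p = 0.159). These p-values used the spread of all 12 libraries, the adipogenic controls included.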

How the results depend on the processing

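The total of genes passing was 1707 in the main fit, 1691 at a pseudocount of 0.1, 1719 with median ratio scaling, 1676 without a trend and 1745 with voom. Such totals do not say how many of the same genes passed. The count was 980 with no filter (670 higher, 310 lower), 4255 with all 12 libraries (2159 higher, 2096 lower) and 6614 with library weights (3213 higher, 3401 lower), where control 2 had a weight of 0.126. At TPM 1208 passed, with 261 lower. With 1 library left out 86 to 5211 passed, 58 to 2477 higher and 28 to 2734 lower, most without control 2 and fewest without the library labelled knockout 3. The interaction gave 1776 to 5356. The causes were not tested. No named gene that passed changed sign under any alternative. Of 118 named genes that passed, 82 passed with no filter and 96 at TPM. With the replicate block 817 genes passed (523 higher, 294 lower) and 91 of the 118 named genes. In 4 of 6 cases a library's deviations correlated best with the library of its own number. Controls 1 and 3 correlated almost equally with the library labelled knockout 1, at 0.504 and 0.497. These values therefore cannot show whether replicate numbers pair the libraries. At 3 libraries per group, 1 library can decide a call.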
